A study of Mus musculus with 2 samples.

Results

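The cells described here are migratory dendritic cells of subcutaneous CT26 tumors, 71 of the 13939 barcodes kept from single-cell RNA sequencing of the tumors, 39 from untreated (UT) tumors and 32 from tumors treated with BUP-Gel (BUP). They were chosen by their own RNA. A barcode was selected on at least 2 unique molecular identifiers (UMIs, each standing for 1 captured RNA molecule) of *Fscn1*, at least 3 of *Ccr7*, at least 1 of *Ptprc* or *H2-Ab1*, no UMI of *Cd3d*, *Cd3e* or *Cd3g*, under 15 UMIs of *C1qa*, *C1qb* and *C1qc* per 10000 UMIs of the barcode, and under 20% mitochondrial UMIs. The tumors were grown under the skin of young male BALB/c mice from CT26, a colon carcinoma line of that strain. BUP-Gel delivers bupivacaine, a local anesthetic, from a hydrogel placed at the tumor, and since no library came from mice given gel alone, gel and drug cannot be told apart. Live cells of 3 tumors were pooled into 1 library per condition, sorted CD45+ and CD45- cells being mixed before loading, and nothing in the counts ties a cell to its mouse. With 1 library per condition there was no replicate and nothing to test a difference against, and every 95% interval below covers counting error only. The day of harvest is not given in the sources used here.

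Dendritic cells take up material in a tissue, and on maturing they lose most of that activity, switch on the chemokine receptor CCR7 and travel along CCL19 and CCL21 to the draining lymph node. The mature, migratory state is known for the actin-bundling protein fascin (*Fscn1*), for the chemokines CCL17 and CCL22, for costimulatory ligands such as CD40, CD80 and CD86, and, in tumors, for regulatory molecules such as PD-L1 (*Cd274*), PD-L2 (*Pdcd1lg2*) and CD200. Such cells can also make *Il12b*, the p40 subunit shared by the T cell-activating cytokines IL-12 and IL-23.

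The label was set beside genes that the selection did not use. *Ccl22* was present in 67 of the 71 cells and *Il12b* in 32. Both had been listed as markers of these cells with earlier results of these data known, so they are no separate check. The dendritic cell growth factor receptor gene *Flt3* was found in 32 of 39 UT and 23 of 32 BUP cells, and *Zbtb46*, a transcription factor of conventional dendritic cells, in 30 and 18. The integrin gene *Itgax*, often used as a dendritic cell marker, was found in 5 and 3 cells. Of the 7 B cell markers only *Fcmr* had UMIs (10 in UT, 2 in BUP), *Cd79a* and *Ms4a1* being at 0. The plasmacytoid dendritic cell genes *Siglech* and *Klra17* had none.

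In all, 83228442 UMIs were counted over 7556 UT barcodes and 89918925 over 7221 BUP barcodes, and 7163 and 6776 barcodes passed the mitochondrial filter. A *Ptprc* UMI was found in 74.1% of the kept UT and 56.2% of the kept BUP barcodes. The libraries shared 76 barcode sequences, none of them among the 71 cells. The UT cells held 2572, 9006 and 19824 UMIs (lowest, median, highest) and the BUP cells 1508, 6304 and 18351, so the BUP cells were the shallower ones. Their median share of mitochondrial UMIs was 1.64% in UT and 1.62% in BUP. Close to the limits of the selection, 1 UT barcode had 1 UMI of *Fscn1* and 2 BUP barcodes had 2 of *Ccr7*. The lowest values inside were 2 and 3 UMIs of *Fscn1* in UT and BUP and 3 of *Ccr7* in both. The limit on *Cd3* UMIs left out 4 UT and 9 BUP barcodes, and the C1q limit 2 and 5. The highest C1q value inside was 7.01 UMIs per 10000 in UT and 11.8 in BUP, against lowest values of 64.9 and 19.8 outside.

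Some of the cells carried RNA of other lineages. At least 10 UMIs of any 1 of 9 marker lists for other cell types were found in 6 of 39 UT and 6 of 32 BUP cells. The list of 11 macrophage and monocyte markers gave 0 to 200 UMIs per cell in UT (median 3) and 0 to 87 in BUP (median 1), with 10 of its 11 genes detected and *Mertk* at 0. The list of 9 T cell markers, counted beside the *Cd3* genes, reached 18 UMIs in UT and 3 in BUP, with *Trbc1*, *Cd4* and *Cd8b1* at 0. The list of 5 natural killer cell markers, *Gzma* above all, reached 103 UMIs in 1 UT cell and 19 in BUP. The list of 5 neutrophil markers gave 0 to 9 UMIs in UT and 0 to 400 in BUP. The erythroid list reached 2 UMIs per cell in UT and 153 in BUP, the mast cell list 5 and 2, the B cell list 3 and 1, the list of tumor and stromal genes 1 and 2, and the plasmacytoid list, nearly all *Tcf4*, 18 and 5. A single BUP cell of 13471 UMIs held 266 of the 267 BUP UMIs of *S100a9* and 97 of the 100 of *S100a8*, together with 80 of *Hbb-bs* and 54 of *Hba-a1*, the haemoglobin genes. This cell had 6 UMIs of *Fscn1* and 12 of *Ccr7* but none of *Ccl22* or *Il12b*, and it is called the cell with neutrophil RNA below. For the genes named below, the ratio without it is given where it decided a direction or a 2-fold difference.

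Against all other *Ptprc*-positive barcodes of both libraries, the genes with the largest ratios included several known from the migratory state. This describes the cells and is not a test, since they were selected on their RNA. Levels are given as UMIs summed over the cells per 1000000 UMIs of those cells (CPM). *Ccl22*, whose product draws CCR4-bearing T cells, was 241-fold higher at 1973 CPM, and *Ccl17*, with the same receptor, 89.7-fold higher at 579 CPM. *Il12b* was 133-fold higher at 674 CPM, and *Il4i1*, an amino acid oxidase that restrains T cells, 182-fold higher at 461 CPM. Less familiar genes stood beside them. *Slc27a3*, of the fatty acid transport protein family, was 394-fold higher at 431 CPM, the long noncoding *Gm13546* 385-fold at 602 CPM and the Nudix hydrolase gene *Nudt17* 370-fold at 321 CPM. *Cacnb3*, a calcium channel subunit gene, was found in 70 of the 71 cells and was 143-fold higher at 818 CPM. *Ramp3*, a partner of peptide hormone receptors, was found in 68 cells (872 CPM) and *Mmp25*, a membrane-bound metalloproteinase gene, in 65 (507 CPM).

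Maturation of dendritic cells runs through NF-kappaB, so the promoters of these leading genes were searched for the kappaB letters GGGANNNTCC on both strands, in the 300 bases before the annotated start of the canonical transcript (mouse genome GRCm39, GENCODE annotation). Of the 20 leading genes, 19 had such a window, and 3 of the 19 (15.8%) held a match, *Ccl22*, *Il4i1* and *Nudt17*, against 1029 of 21757 windows of that length over all protein-coding genes (4.73%). *Ccl22* and *Il4i1* are shown because one is the chemokine that marks these cells and the other a regulatory enzyme that was below 2 CPM in the other 4 gated cell types. The *Ccl22* window is chr8:95471918-95472217 on the plus strand, inside the annotated span of the gene, whose longer transcripts start farther upstream, and its match lies 37 to 28 bases before the start. The *Il4i1* window is chr7:44465054-44465353 on the plus strand, directly before the gene, and its match lies 248 to 239 bases before the start. Capitals mark the matched letters, which in *Ccl22* match on the minus strand. A match describes the letters only.
Ccl22: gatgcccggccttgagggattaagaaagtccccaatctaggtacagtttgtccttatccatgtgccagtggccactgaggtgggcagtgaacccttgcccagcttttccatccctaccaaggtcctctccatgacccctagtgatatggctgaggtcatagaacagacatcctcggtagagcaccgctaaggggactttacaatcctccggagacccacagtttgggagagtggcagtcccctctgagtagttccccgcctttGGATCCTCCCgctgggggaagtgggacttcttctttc
Il4i1: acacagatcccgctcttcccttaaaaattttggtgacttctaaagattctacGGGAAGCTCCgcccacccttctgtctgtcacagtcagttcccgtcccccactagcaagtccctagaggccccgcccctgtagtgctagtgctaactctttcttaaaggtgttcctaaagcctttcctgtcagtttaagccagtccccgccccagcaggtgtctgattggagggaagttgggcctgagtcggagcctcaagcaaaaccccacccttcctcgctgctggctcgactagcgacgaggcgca

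Set beside 4 other gated cell types of the same libraries, the migratory cells differed in several programs at once. Conventional type 1 dendritic cells (cDC1, gated on *Xcr1* and *Clec9a*, 45 cells in UT and 59 in BUP) had 18.7 CPM of *Ccl22*, 29.1 CPM of *Il12b* and 0.520 CPM of *Il4i1*, all low beside the values above. *Cd40* was at 415 CPM in the migratory cells and 49.9 CPM in cDC1, *Cd83* at 1327 and 611 CPM. *Cd86* was at 610 CPM in the migratory cells and 353 CPM in cDC1, but it was not found in a larger share of the migratory cells. Thinned to 2000 UMIs, 51.3% of UT and 32.3% of BUP migratory cells had it. Among cDC1 thinned in the same way the shares were 55.6% in UT and 42.4% in BUP, with overlapping intervals. The regulatory ligand genes had higher summed levels in the migratory cells than in cDC1. *Cd274* was at 1099 and 163 CPM, *Pdcd1lg2* at 249 and 39.5 CPM and *Cd200* at 277 and 7.80 CPM. The opposite order held for antigen presentation on MHC class II, where *H2-Aa* was at 4216 CPM in the migratory cells and 14513 CPM in cDC1 and *Ciita*, the master regulator of class II genes, at 16.4 and 184 CPM. Of the 2 genes on which cDC1 were gated, *Xcr1* was at 8.20 CPM and *Clec9a* at 9.84 CPM in the migratory cells. *Ccl5*, which attracts T cells and monocytes, was at 6453 CPM in the migratory cells, above its 948 CPM in CD8 T cells.

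**Figure D1:**
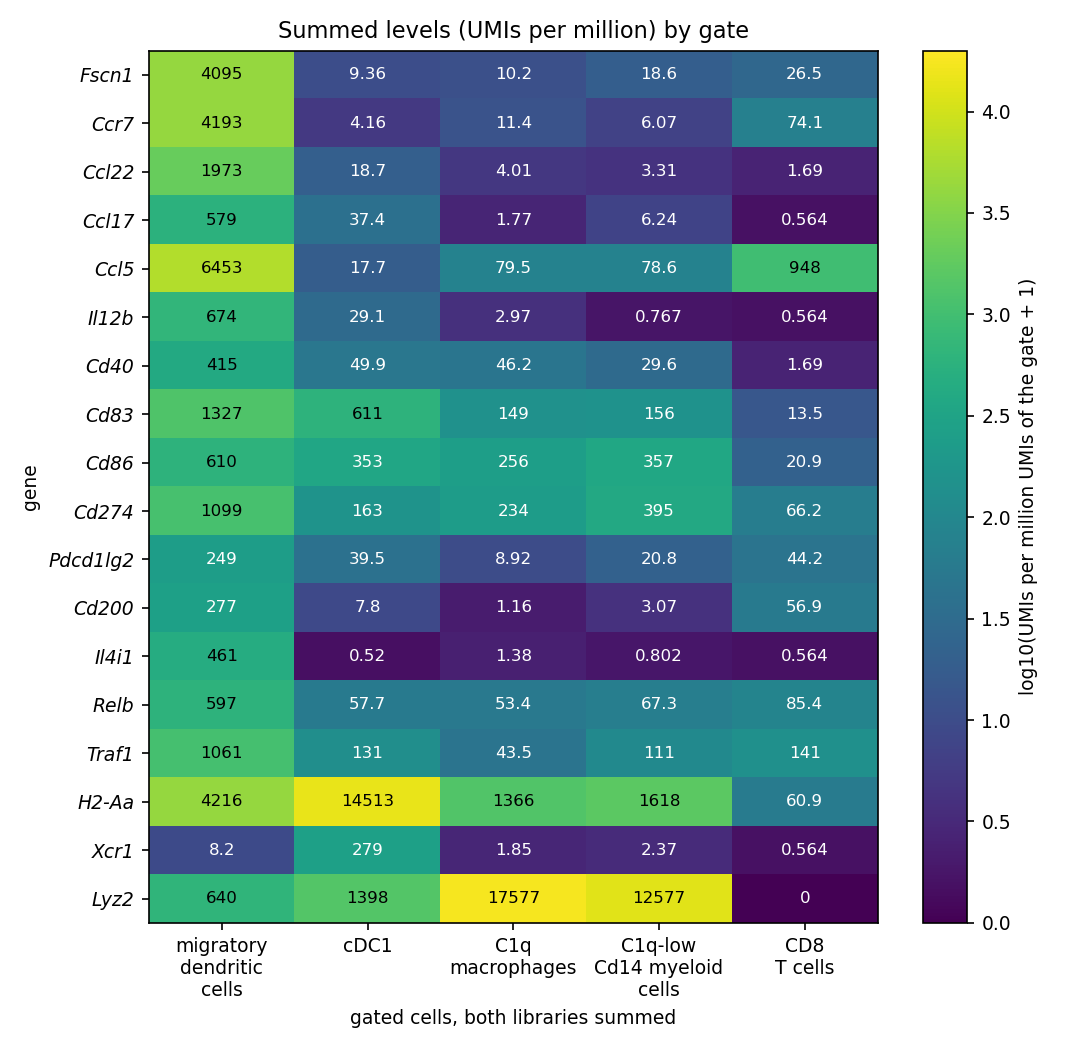
Summed level of 18 genes (rows) in 5 gated cell types (columns), both libraries together, with the value in CPM printed in each field and colored on a log10(CPM + 1) scale. *Ccl22*, *Il12b* and *Il4i1* are high in the migratory dendritic cells and below 40 CPM in the other 4 types, while *H2-Aa* is highest in cDC1 and *Lyz2* in macrophages and myeloid cells.

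Several surface markers that define the conventional dendritic cell subsets had few UMIs. In UT and BUP, *Clec9a* had 1 and 5 UMIs, *Itgae* 1 and 4, and *Xcr1* 0 and 5, all of them cDC1 markers. The cDC2 marker *Cd209a* was at 0 in both, *Clec10a* had 2 and 1 UMIs, and *Sirpa* 18 and 15. The cDC2-type lectin gene *Mgl2* was in 13 UT and 5 BUP cells. *Il1r2*, listed with cDC2, was found more widely, in 23 of 39 UT and 16 of 32 BUP cells. It was in 29 of 45 UT and 33 of 59 BUP cDC1 as well. The cell with neutrophil RNA held 28 BUP UMIs of *Il1r2* and all other BUP cells 31. The log2 ratio of *Il1r2*, BUP over UT, was -0.72, and -1.57 without that cell. Together the 10 listed cDC2 genes gave 292 UMIs in UT and 156 in BUP, and the 10 cDC1 genes 41 and 42. Among transcription factors, the cDC1 factor *Irf8* was found in 35 of 39 UT and 28 of 32 BUP cells (869 and 923 CPM), *Batf3* in 23 and 21 cells, and the cDC2 factor *Irf4* in 14 and 6. Cell cycle genes were sparse, all 8 of them together giving 39 UMIs in UT and 26 in BUP.

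Migratory dendritic cells made up 0.544% of kept UT barcodes (39 of 7163; exact binomial interval 0.387 to 0.744%) and 0.472% of kept BUP barcodes (32 of 6776; 0.323 to 0.666%). The difference of -0.0722 percentage points had an interval from -0.321 to 0.177, so no difference in share was detectable at this number of cells. The sign depended on which barcodes were counted. Among barcodes with a *Ptprc* UMI the migratory cells were 29 of 5310 in UT (0.546%) and 25 of 3807 in BUP (0.657%). That is a difference of 0.111 points (-0.221 to 0.470), with the migratory cells lacking a *Ptprc* UMI left out. Without the filter on *Cd3* UMIs the counts were 43 and 41, a difference of 0.00477 points (-0.264 to 0.276). Of migratory cells and cDC1 together the migratory cells were 46.4% in UT and 35.2% in BUP (difference -11.3 points, -26.1 to 4.06). Sorting fixed the mix of CD45+ and CD45- cells, so none of these is a share of the tumor.

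For levels of single genes, 941 genes with at least 100 UMIs over the cells of both libraries were compared between BUP and UT. Of these, 18 (1.91%) were at least 2-fold higher and 22 (2.34%) at least 2-fold lower in BUP. The median log2 ratio was 0.00 and the middle quartiles ran from -0.26 to 0.27. The exact interval lay above 0 for 182 genes and below 0 for 148. The counts of listed genes that follow read against these shares. In such sums, a difference in which cells were caught and a difference in RNA per cell cannot be told apart.

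Of 10 genes of chemotactic receptors 2 were compared. *Ccr7* had been used to choose the cells. Its level per cell was 6.19, 43.9 and 112 UMIs per 10000 in UT (lowest, median, highest) and 8.01, 33.7 and 121 in BUP, overlapping ranges, with sums of 4285 and 4055 CPM. *Gpr183*, which encodes the oxysterol receptor EBI2 that positions dendritic cells and lymphocytes, showed the largest difference downward among all compared genes. Per cell it was 0, 2.34 and 28.7 UMIs per 10000 in UT and 0, 0 and 8.51 in BUP. It was found in 28 of 39 UT cells and in 9 of 32 BUP cells, so most UT cells had it and most BUP cells did not. The summed levels of UT and BUP were 434 and 57.5 CPM, a log2 ratio of -2.92 (-3.82 to -2.13). After each cell was thinned to 2000 UMIs, 59.0% of 39 UT cells (42.1 to 74.4%) and 12.9% of 31 BUP cells (3.63 to 29.8%) still had it, beside 19.3% of UT and 15.4% of BUP CD8 T cells. The log2 ratio was -1.86 with each cell weighing the same and -1.42 in thinned cells, and the sign held under every alternative run. Other cells had less of it in UT, with 203 and 89.8 CPM of *Gpr183* in cDC1 of UT and BUP and 86.2 and 79.6 CPM in C1q macrophages. The gene lies on chromosome 14 from 122189592 to 122202610 (GRCm39, minus strand). *Ccr1*, *Ccr2*, *Ccr6*, *Cxcr4*, *Cx3cr1* and *Xcr1* had at most 12 UMIs in a library, and *Cxcr3* had none.

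Genes of the cytoskeleton and motility, which shape the dendrites and drive crawling, had ratios near 0. Of 14 listed genes 13 were compared, none passed 2-fold, and the median log2 ratio was -0.04. *Fscn1*, on which the cells had been selected, was at 4660 and 3246 CPM in UT and BUP. *Actg1*, the gene of cytoplasmic gamma-actin, was at 10417 and 9973 CPM and *Marcks*, a membrane-linked actin regulator, at 1155 and 1120 CPM, with intervals that held 0. *Tmsb10*, which binds actin monomers, was higher in BUP at 2228 against 1344 CPM (0.73, 0.55 to 0.91).

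Of 12 chemokine ligands, 4 were compared and none passed 2-fold. *Ccl22* per cell was 0, 14.1 and 99.6 UMIs per 10000 in UT and 0, 17.1 and 55.4 in BUP, with sums of 2068 and 1830 CPM (log2 ratio -0.18, -0.35 to -0.01). The ratio was 0.05 once cells with high doublet scores were left out and 0.02 without the cells holding RNA of other lineages, so no direction is given for it. *Ccl17* was lower in BUP, 0, 0.281 and 26.2 UMIs per 10000 against 0, 1.91 and 58.3 in UT, with 414 against 688 CPM (-0.73, -1.08 to -0.39) and with 79.2% of its BUP UMIs in 5 cells. *Ccl5* was found in 35 UT and 31 BUP cells at 7232 and 5282 CPM (-0.45, -0.55 to -0.36), yet its median per cell was lower in UT, at 38.3 UMIs per 10000, than in BUP, at 53.9. The scavenger-type chemokine *Cxcl16* was at 934 and 870 CPM. *Ccl19*, one of the CCR7 ligands, was at 0 in both libraries, and *Cxcl9* and *Cxcl10*, which recruit CXCR3-bearing T cells, had 11 and 20 UMIs in UT and 9 and 2 in BUP.

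**Figure D2:**
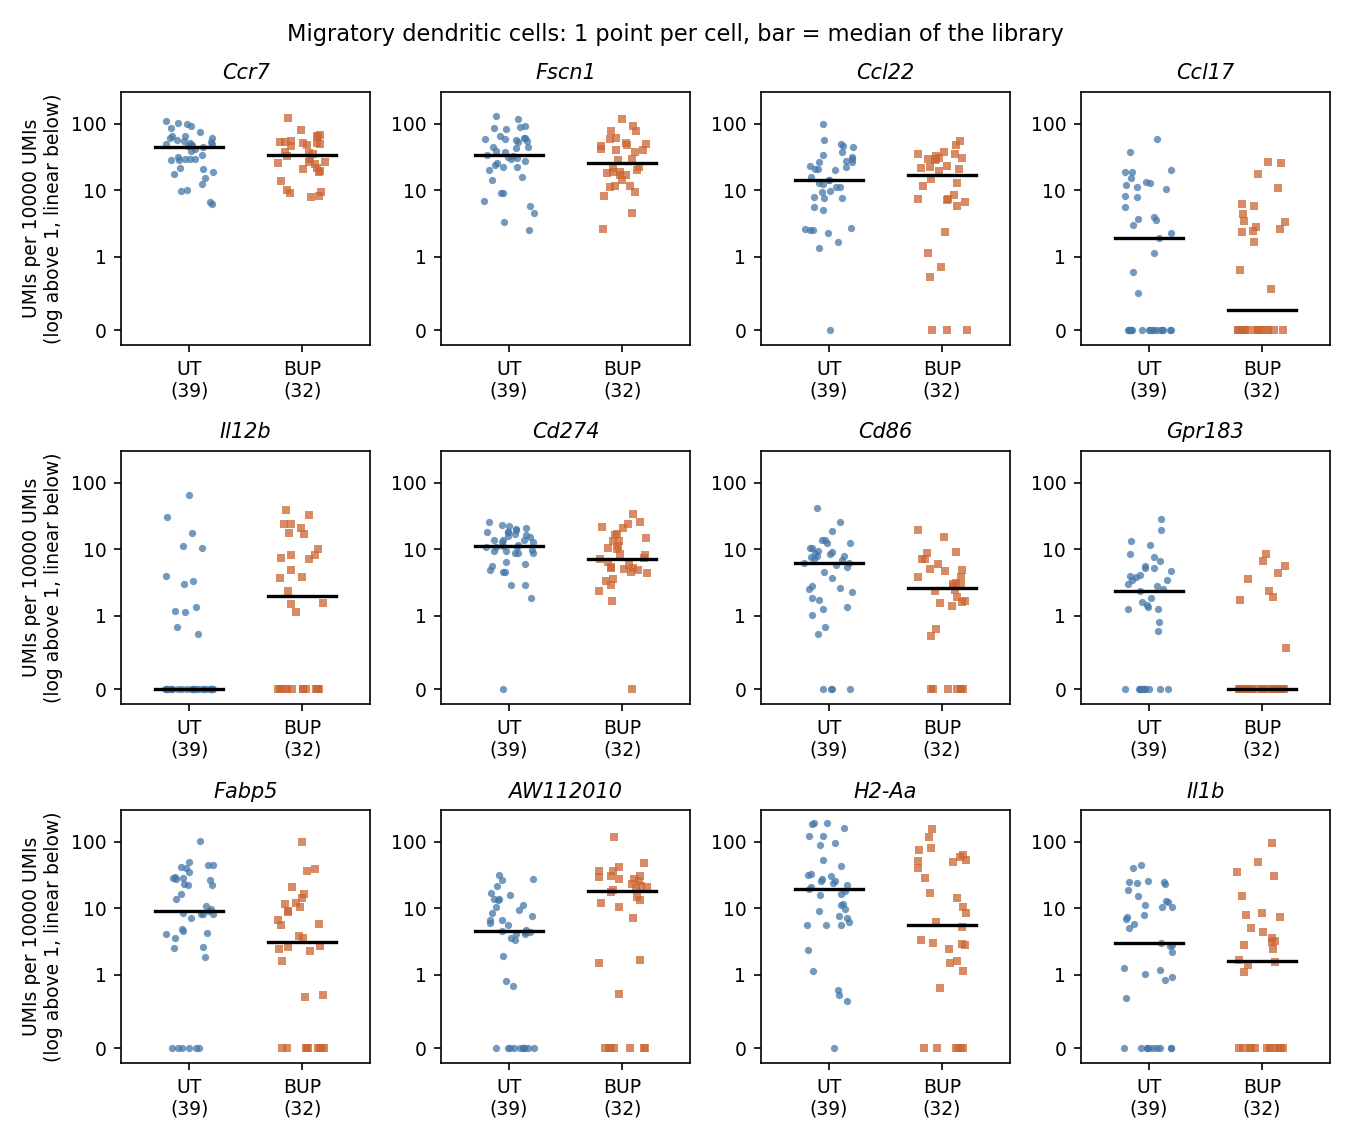
UMIs per 10000 UMIs of the cell (y axis, logarithmic above 1 and linear below) for 12 genes in each of the 39 UT (circles) and 32 BUP (squares) migratory dendritic cells, with the median of the library as a bar. *Ccr7*, *Ccl22* and *Cd274* cover like ranges in both libraries, *Gpr183* is at 0 in 23 of 32 BUP cells and 11 of 39 UT cells, and *Il12b* has a median of 0 in UT and 1.95 in BUP.

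Of 13 cytokine genes 3 were compared, 1 passed 2-fold upward and the median log2 ratio was 0.50. The gene past 2-fold was *Il12b*, higher in BUP. It was found in 13 of 39 UT cells (33.3%, 19.1 to 50.2%) and 19 of 32 BUP cells (59.4%, 40.6 to 76.3%), although the BUP cells were shallower. Per cell it was 0, 0 and 64.5 UMIs per 10000 in UT and 0, 1.95 and 39.2 in BUP. The highest cell was a UT cell, and 5 cells held 93.1% of the UT UMIs against 70.6% in BUP, so the BUP UMIs were spread over more cells. The sums were 473 and 977 CPM, a log2 ratio of 1.05 (0.76 to 1.34). Without the 5 highest cells of each library it was 3.30. Those cells held 93.1% of the 173 UT UMIs, so few UT UMIs were left and the 3.30 adds no weight. In cells thinned to 2000 UMIs the shares were 23.1% (11.1 to 39.3%) and 32.3% (16.7 to 51.4%), and the log2 ratio was 0.98. CD8 T cells, taken as background, had an *Il12b* UMI in 0 of 85 UT and 2 of 340 BUP cells. The gene lies on chromosome 11 from 44290808 to 44305505 (plus strand). *Il12a*, whose p35 subunit pairs with p40 in IL-12, had 1 UMI in UT and none in BUP, and *Il23a*, the partner in IL-23, likewise 1 and none.

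*Il1b*, the gene of the inflammatory cytokine IL-1beta, was at 762 and 1079 CPM in UT and BUP (0.50, 0.25 to 0.75), but 129 of its 263 BUP UMIs were in the cell with neutrophil RNA, and without that cell the log2 ratio was -0.39. It was -0.03 with each cell weighing the same, so no direction is given for it. *Tnf* was at 202 and 250 CPM (0.31, -0.20 to 0.82). *Il15*, which sustains T and natural killer cells, was at 120 and 127 CPM in 22 and 17 cells. *Il6* had 7 and 0 UMIs, *Il10* had 2 in each library and *Il27* at most 1, too few to compare.

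Costimulatory genes showed no common direction. Of 12 listed genes 5 were compared, 1 passed 2-fold upward and the median log2 ratio was 0.03. *Cd86*, a ligand of CD28 and CTLA-4, was lower in BUP. Per cell it was 0, 6.21 and 42.1 UMIs per 10000 in UT and 0, 2.6 and 19.5 in BUP, with sums of 754 and 394 CPM (-0.94, -1.29 to -0.60), and between -0.97 and -0.74 under all alternatives run. Thinned to 2000 UMIs, 51.3% of UT (34.8 to 67.6%) and 32.3% of BUP cells (16.7 to 51.4%) had it. In UT and BUP, cDC1 had 398 and 319 CPM of *Cd86*, and C1q macrophages 234 and 312 CPM, the other way round. *Cd80*, with the same receptors, was at 276 and 300 CPM (0.12, -0.34 to 0.57), *Cd40*, which receives help from CD4 T cells, at 442 and 373 CPM (-0.24, -0.63 to 0.13), and the maturation marker *Cd83* at 1316 and 1342 CPM (0.03, -0.18 to 0.23). *Tnfsf9*, the ligand of 4-1BB, was at 156 and 316 CPM (1.02, 0.51 to 1.54), but without the 5 highest cells of each library its ratio was -0.36. It was found in 46.2% of UT and 46.9% of BUP cells, so no direction is given for it. Of 17 genes of cytokine receptors and their signaling 7 were compared, none passed 2-fold and the median log2 ratio was -0.26. The 4-1BB gene *Tnfrsf9*, listed with them, was lower in BUP at 492 against 961 CPM (-0.97, -1.28 to -0.66). *Il7r*, the IL-7 receptor gene, was at 350 and 201 CPM (-0.80, -1.30 to -0.31).

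No regulatory gene passed 2-fold. Of 16 listed genes 7 were compared, and the median log2 ratio was -0.15. *Cd274* per cell was 0, 11.1 and 25.7 UMIs per 10000 in UT and 0, 7.12 and 34.3 in BUP, with sums of 1144 and 1030 CPM (-0.15, -0.38 to 0.08). *Pdcd1lg2* was at 265 and 226 CPM (-0.23, -0.74 to 0.26) and *Cd200*, an inhibitory ligand for myeloid cells, at 281 and 271 CPM (-0.05, -0.52 to 0.41). *Il4i1* was lower in BUP, found in 35 of 39 UT and 19 of 32 BUP cells at 549 and 328 CPM (-0.74, -1.13 to -0.36). The retinoic acid enzyme gene *Aldh1a2* had 18 UMIs in 6 UT cells and 1 in BUP, and *Ido1* had 1 in each library. *Socs3*, a brake on cytokine signaling, was at 128 and 230 CPM (0.84, 0.25 to 1.43), with 82.1% of the BUP UMIs in 5 cells. Its log2 ratio was 0.32 without the cell with neutrophil RNA and -0.40 without all cells holding 10 or more UMIs of another lineage, so no direction is given for it.

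**Figure D3:**
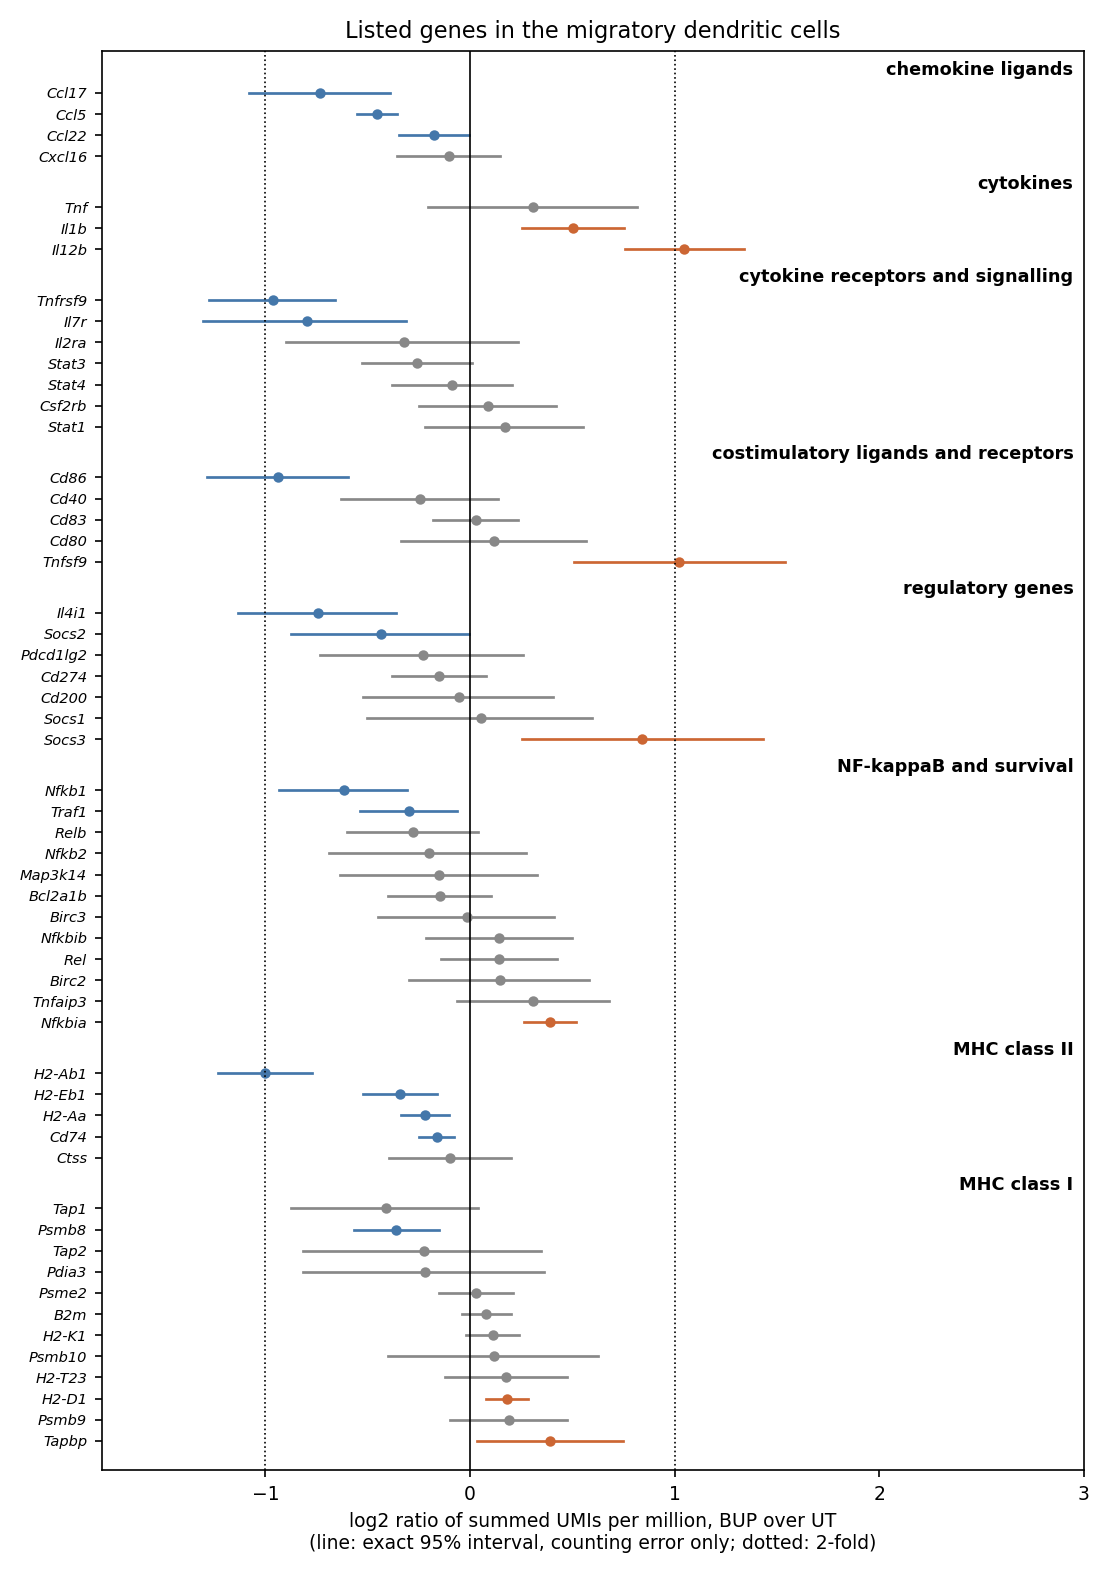
Log2 ratio of CPM, BUP over UT (x axis), with its exact 95% interval for counting error, for the 55 compared genes of 8 lists, each list sorted by ratio. Blue marks an interval below 0, orange one above 0 and gray one that holds 0, and the dotted lines mark 2-fold, which *Il12b* and *Tnfsf9* pass upward and which *H2-Ab1* just misses downward.

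Of 12 MHC class II genes 5 were compared, and 4 of them had intervals below 0. The median log2 ratio of the list was -0.22 and no gene passed 2-fold. *H2-Ab1*, which the selection used in part, was at 1748 and 874 CPM, a ratio just short of 2-fold (log2 interval -1.23 to -0.77), with 70.8% of the UT and 87.3% of the BUP UMIs in 5 cells. *H2-Aa* per cell was 0, 19.5 and 191 UMIs per 10000 in UT and 0, 5.65 and 156 in BUP, a lower middle within the same span, with sums of 4468 and 3837 CPM (-0.22, -0.34 to -0.10), a ratio that was 0.14 without the cells holding RNA of other lineages. *H2-Eb1* was at 1999 and 1576 CPM and *Cd74*, the invariant chain, at 8199 and 7330 CPM. Without those same cells their log2 ratios were -0.08 and 0.13, so of the 4 genes *H2-Aa* and *Cd74* turned sign under that alternative. Of 15 MHC class I genes 12 were compared, none passed 2-fold and the median log2 ratio was 0.09. *H2-K1* was at 3133 and 3382 CPM and *B2m* at 3761 and 3973 CPM, both with intervals that held 0. Of 17 genes for sensing and uptake 14 had UMIs and 2 were compared. *Tlr3*, *Tlr11* and *Cd209a* were at 0, while the uptake receptor *Ly75* (DEC-205) was at 634 and 624 CPM and *Clec7a* (dectin-1) at 462 and 320 CPM (-0.53, -0.93 to -0.13).

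Of 16 genes of the NF-kappaB pathway and survival 12 were compared, none passed 2-fold and the median log2 ratio was -0.08. *Relb*, the subunit of the alternative pathway, was found in all 71 cells at 642 and 529 CPM, and its partner *Nfkb2* at 279 and 242 CPM, both with intervals that held 0. *Traf1* was found in all 71 cells as well, at 1147 and 932 CPM (-0.30, -0.54 to -0.06). *Nfkb1* was lower in BUP (787 and 513 CPM, -0.62, -0.93 to -0.31) and the inhibitor *Nfkbia* higher (2972 and 3899 CPM, 0.39, 0.26 to 0.52). In cells thinned to 2000 UMIs their log2 ratios were -0.13 and 0.01, outside these intervals.

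Each listed interferon response gene had UMIs, but most had too few to compare. Of 15 type I genes only *Isg15* was compared, at 432 and 291 CPM (-0.57, -0.99 to -0.15), while *Oasl1* rested on 20 UMIs in UT and 54 in BUP and *Irf7* on 16 and 38. Of 12 interferon gamma genes 2 were compared. *Irf1*, a transcription factor that interferon gamma induces, was found in 27 UT and 22 BUP cells at 251 and 534 CPM (1.09, 0.69 to 1.49), and *Gbp5* was at 175 and 152 CPM. Without the cell with neutrophil RNA the log2 ratio of *Irf1* was 0.80, below 2-fold, the lowest of 0.80 to 1.19 under the alternatives. *Irf1* was at 117 and 107 CPM in cDC1 of UT and BUP and at 218 and 217 CPM in C1q macrophages. Of the immediate-early genes, which also respond to tissue digestion, *Atf3* was at 142 and 332 CPM (1.23, 0.71 to 1.76) and *Junb* at 1131 and 1720 CPM (0.60, 0.41 to 0.80). Without the cell with neutrophil RNA the log2 ratios were 0.80 for *Atf3*, below 2-fold, and 0.39 for *Junb*. *Fos* was at 587 and 451 CPM (-0.38, -0.72 to -0.04). *Jun*, at 918 and 751 CPM, had a ratio of -0.29 that was 0.11 without the cells holding RNA of other lineages, so no direction is given for it. The part of digestion in *Irf1* or *Il12b* was not tested.

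The study targeted acetylcholine signaling, so its receptors were looked for. Of 18 muscarinic and nicotinic receptor genes, *Chrm3* had 1 UMI in UT and 3 in BUP, *Chrna9* and *Chrnb1* had 1 each in UT, and the other 15, *Chrm5* and *Chrna7* among them, had none. A count of 0 allows up to 3 counts, which is 8.19 CPM in UT and 12.3 CPM in BUP. Among macrophage and monocyte markers *Lyz2*, the lysozyme gene, was the most abundant, with 273 UMIs in 34 UT cells and 117 in 17 BUP cells (746 and 480 CPM, log2 ratio -0.63, -0.96 to -0.32). The ratio was -2.00 with the C1q limit at 5 per 10000 and -1.48 without cells with high doublet scores, both outside this interval. The others had few UMIs, *Arg1* with 4 UMIs in each library, *Mrc1* with 7 and 3, and *Cd14* with 21 and 30, the last in 12 UT and 4 BUP cells.

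Apart from the lists, the genes with the largest ratios were followed cell by cell. Downward after *Gpr183* came *Mfge8*, whose product bridges dying cells and phagocytes, at 1052 and 345 CPM (-1.61, -1.97 to -1.27). It was not spread over the cells, since 5 cells held 90.9% of the UT and 92.9% of the BUP UMIs. *Tmem176b* and *Tmem176a*, neighboring genes of ion channels of dendritic cell vesicles, were lower together, at 576 and 209 CPM (-1.46, -1.93 to -1.01) and at 448 and 176 CPM (-1.34, -1.86 to -0.85). They were found in 32 and 34 UT cells and in 19 BUP cells each, and for *Tmem176b* the log2 ratio was -0.48 in thinned cells. In cDC1 of UT and BUP *Tmem176b* was at 20.4 and 58.6 CPM, the opposite order. *Fabp5*, a fatty acid carrier, was 0, 9.02 and 104 UMIs per 10000 in UT cells and 0, 3.15 and 99.5 in BUP cells, with sums of 1658 and 636 CPM (-1.38, -1.65 to -1.13) and -0.85 with each cell weighing the same. The calcium-binding *S100a4* was at 442 and 164 CPM (-1.43, -1.97 to -0.92), *Tbc1d15*, which acts on Rab7, at 227 and 82.1 CPM, *Ifitm1*, an interferon-induced membrane protein, at 784 and 308 CPM, and *Nrp2*, a coreceptor of semaphorins, at 322 and 127 CPM. For *Nrp2* the log2 ratio of -1.34 (-1.96 to -0.76) was -0.33 in thinned cells, outside this interval. *Syn3*, a synapsin gene and one of the leading genes above, was at 336 and 131 CPM (-1.36, -1.96 to -0.78). All of these kept their sign under every alternative run.

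Upward, the largest ratios belonged to *S100a9* and *S100a8*, with 5 and 2 UMIs in UT and 267 and 100 in BUP, nearly all in the cell with neutrophil RNA. Without the cells holding 10 or more UMIs of another lineage their log2 ratios were -1.72 and -0.40. *Cebpb* (1.81) and *Ier3* (1.37) also rested on few cells, with ratios of -1.21 and -0.25 without those same cells. Without the cell with neutrophil RNA alone, the ratio of *Cebpb* was 0.35. The noncoding RNA gene *AW112010*, which interferon and inflammatory signals induce, was spread more widely. Per cell it was 0, 4.46 and 31.0 UMIs per 10000 in UT and 0, 18.1 and 117 in BUP, with sums of 836 and 2466 CPM (1.56, 1.36 to 1.76), and 1.27 to 1.69 under the alternatives. In CD8 T cells, which have much of it, the UT and BUP levels were 2436 and 2264 CPM. *Bcl2l14*, of the Bcl-2 family, was at 107 and 378 CPM (1.83, 1.27 to 2.40) in 13 and 12 cells, and *Scin*, which severs actin filaments, at 90.1 and 328 CPM (1.86, 1.26 to 2.50) in 7 and 11 cells. *Ly6e*, *Lima1* and *Grina* were at 324, 324 and 267 CPM in BUP against 107, 112 and 98.3 CPM in UT. Few cells held most UMIs of *Bcl2l14*, *Scin* and *Ly6e*. The 5 highest cells had 71.8%, 87.9% and 94.9% of them in UT and 83.7%, 86.25% and 87.3% in BUP.

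Within each library the cells were not alike, and some genes followed *Il12b* across them, up or down. Over the 71 cells, *Il12b* per 10000 UMIs went with *Txndc17* (Spearman's rho 0.56), *Strip2* (0.53), *Epsti1* (0.47) and *AW112010* (0.46), and against *S100a6* (-0.53), *Gpr183* (-0.49), *Il1b* (-0.48), *Anxa2* (-0.47) and *Malt1* (-0.46), out of 934 genes. All 9 had the same sign within UT alone and within BUP alone. The 9 were picked for strong correlations over these same cells, so that is no separate support. The correlations are descriptions over cells that share 2 libraries and differ in depth, and rho of *Il12b* with depth was 0.16. The cells with *Il12b* had a median of 10705 UMIs in UT and 7802 in BUP, and those without it 8742 and 4306. In UT, *Il1b* was found in 4 of the 13 cells with *Il12b* and in 25 of the 26 without, at 156 and 1089 CPM. The 156 CPM rested on 20 UMIs, 15 of them in 1 cell, and was 42.9 CPM without that cell. In BUP it was found in 10 of 19 and 9 of 13 cells, at 287 and 2946 CPM, or 1436 CPM in the cells without *Il12b* once the cell with neutrophil RNA was left out. *Txndc17*, a thioredoxin-like gene, was at 1207 CPM with and 320 CPM without *Il12b* in UT, and at 1403 and 303 CPM in BUP. The annexin gene *Anxa2* was at 654 and 1615 CPM in UT and at 690 and 1060 CPM in BUP.

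**Figure D4:**
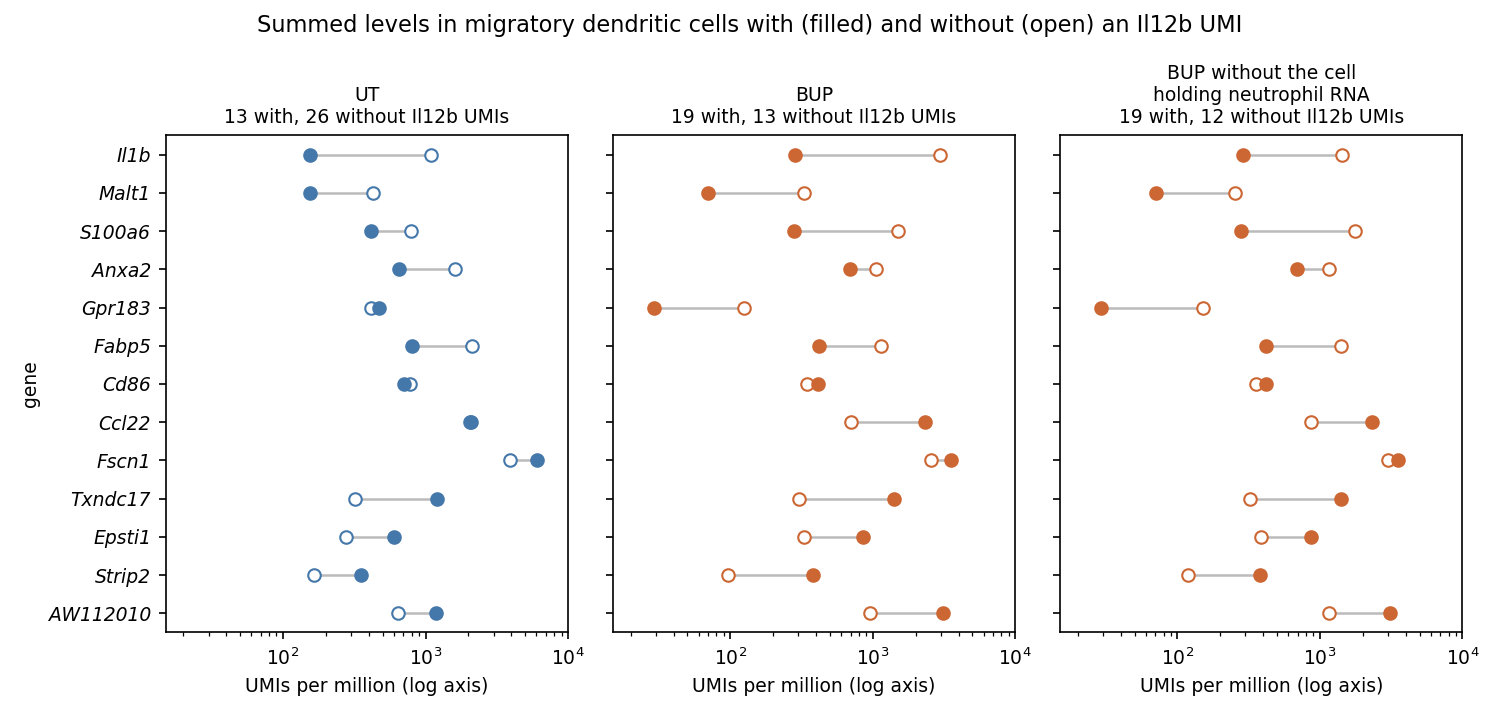
Summed level in CPM (x axis, logarithmic) of 13 genes in migratory dendritic cells with (filled) and without (open) an *Il12b* UMI, for UT, for BUP, and for BUP without the cell with neutrophil RNA. *Il1b*, *Malt1*, *S100a6*, *Anxa2* and *Fabp5* are higher in the cells without *Il12b* and *Txndc17*, *Epsti1*, *Strip2* and *AW112010* higher in those with it, in all 3 panels. Most of these genes were picked for their correlation with *Il12b* over the same cells.

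Because more BUP than UT cells had *Il12b*, the differences between the libraries were also read within cells with and without it. *Gpr183* was lower in BUP in both, with 475 against 29.2 CPM among cells with *Il12b* (5 of 13 UT and 3 of 19 BUP cells had it) and 412 against 124 CPM among cells without (23 of 26 and 6 of 13). A single UT cell held 42 of the 61 UMIs of *Gpr183* in UT cells with *Il12b*, and without it their level was 167 CPM. The 29.2 CPM of BUP was 5 UMIs. *Fabp5* was at 802 and 421 CPM with *Il12b* and at 2120 and 1143 CPM without, and *Cd86* at 701 and 415 CPM and at 782 and 344 CPM. *AW112010* was at 1192 and 3111 CPM with *Il12b* and at 644 and 950 CPM without. The class II gene *H2-Aa* was at 3474 and 4748 CPM with *Il12b* and at 5005 and 1693 CPM without. These levels rested on few cells, 1 UT cell holding 279 of 446 UMIs with *Il12b* (1468 CPM without that cell) and 1 BUP cell 62 of 123 without *Il12b* (905 CPM without that cell). *Ccl22* was at 2087 and 2310 CPM with *Il12b*, where 1 UT cell held 108 of 268 UMIs (1361 CPM without that cell), and at 2057 and 702 CPM without *Il12b*.

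Other genes formed groups of their own across the cells. *Ccl22* and *Ccl17* went together (rho 0.52, 0.66 in UT and 0.38 in BUP), and *H2-Ab1* went with *H2-Eb1* (0.66), *H2-Aa* (0.62) and *Cd74* (0.59) and against the leading gene *Slc27a3* (-0.54). *Gpr183* went with *H2-Ab1* (0.48) and against *Npc2* (-0.57) and *Id2* (-0.54). *Ccr7* went with *Cd83* (0.55), *Rgs1* (0.55) and *Nr4a3* (0.52), and *Fscn1* with *Socs2* (0.53). *Ccr7* and *Fscn1* had been used to choose the cells, so their values are cut off at the low end. *H2-Ab1* was used in part. Only 29 of 39 UT and 25 of 32 BUP cells had a *Ptprc* UMI, and the others entered through *H2-Ab1*.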

How the data were processed

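The authors counted UMIs per gene and barcode with Cell Ranger on GRCm39 (10x 5' chemistry), and the deposited values are these raw counts, not normalized. The submitters' processing notes give Cell Ranger 8.0.1, whereas the study's methods name a slightly earlier release. The notes also name Seurat 5.0.1, which was not used here. Libraries were grouped by their treatment labels. Cells were gated as described, on 33696 listed genes. The gate, its gene lists and the comparisons were chosen with earlier results of these data known. CPM and ratios come from UMIs summed over cells, with exact Poisson, binomial and conditional 95% intervals. They cover counting error only. Named genes were those of the lists, the 10 highest and 10 lowest ratios, the 20 leading genes, and dendritic cell and macrophage genes that the study names. The genes set beside *Il12b* across cells were picked from the strongest correlations after their values were seen. Scrublet called 2 UT (0.0279%) and 163 BUP barcodes (2.41%) and did not work in UT, so doublets were kept in the results, and an alternative left out the 6% highest scores. Those scores took in 4 of 32 BUP migratory cells (12.5%) and 0 of 39 UT ones. Among the migratory cells that alternative therefore changed BUP alone. Ratios were tested on simulated data. Python 3.11.15, numpy 2.4.6, scipy 1.17.1, pandas 2.3.3, matplotlib 3.10.9 and scanpy 1.11.5 were used.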

Additional observations from a re-analysis of the deposited data

How the results depend on the processing

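Each group was 1 library, so nothing here measures the spread between mice, and no result passed or failed a test. No paired analysis was possible because each group has 1 library and no test was run. BUP cells were shallower, which bears on shares of cells with a UMI. The difference in share stayed within its interval under all alternatives but the change of denominator to migratory cells and cDC1 together (chosen after seeing the data), which gave 46.4% in UT, 35.2% in BUP and a difference of -11.3 points.

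The numbers of genes at least 2-fold higher and lower (18 and 22) were 35 and 42 in cells thinned to 2000 UMIs, 100 and 133 among genes with at least 30 UMIs, and 3 and 4 among those with at least 300. The lower count was 36 without cells holding 10 or more UMIs of another lineage (chosen after seeing the data) and 54 without the 5 cells of each library with most UMIs of the gene. The other alternatives gave 14 to 24 genes higher and 17 to 31 lower. Among genes past 2-fold, signs turned for *S100a9* (-1.50 with the C1q limit at 5 per 10000, -1.72 without cells of other lineages, -1.65 without the cell with neutrophil RNA, the last also chosen after seeing the data), *S100a8* (-0.40 without cells of other lineages), *Cebpb* (-1.21 without those, -1.25 without the 5 highest cells), *Ier3* (-0.25 and -0.13 in the same order) and *Tnfsf9* (-0.36 without the 5 highest cells). The cause was not tested. Of 24 named genes past 2-fold, 19 kept 1 sign under all alternatives. Some alternatives could not turn such a sign. A stricter cell filter kept all 39 UT and 32 BUP cells, and scaling by the median ratio moved log2 ratios by 0.00115. Levels by *Il12b* status were also computed without the cell with most UMIs of the gene, a choice made after seeing the data.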
